A study of Mus musculus with 8 samples.

Results

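The Ebf1 locus was described peak by peak from ATAC-seq, which cuts open chromatin with a transposase and sequences the freed fragments. A peak was a member where its centre lay within Ebf1, in the 20 kb before the first transcript start or in the 10 kb past the end. This gave 22 of the 87642 peaks of the table for multipotent progenitor 3 (MPP3) cells and 22 of the 86952 peaks of the table for multipotent progenitor 4 (MPP4) cells, 44 of 174594 in all. Ebf1 (ENSMUSG00000057098.14) lies on the plus strand of mouse chromosome 11 at chr11:44617317-45008091 (GRCm38, the assembly also named mm10), spans 390.775 kb and has 16 exons and 15 introns in its longest annotated transcript (GENCODE vM21).

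The 8 libraries were made from 5000 sorted bone marrow cells each, 2 for each of 4 groups of C57BL/6 mice. By the labels all mice carried the floxed Ebf1 allele: WT mice were Ebf1fl/fl Tie2Cre +/+ and KO mice were Ebf1fl/fl Tie2Cre +/cre, where the Tie2 (Tek) promoter drives Cre in hematopoietic and endothelial cells. MPP3 WT mice were 8 weeks old, MPP3 KO mice 8 to 9 weeks, MPP4 WT mice 9 weeks and MPP4 KO mice 8 weeks. MPP3 cells were gated as Lin- Sca-1+ c-Kit+ (LSK), CD150- and CD48+, and MPP4 cells in the same way and as Flt3+; the label of the MPP3 gate did not name Flt3. All libraries came from female mice except 1 of the MPP4 WT libraries. The study's own text named the controls as Ebf1wt/wt Tie2Cre in its results and as flox/flox or +/Cre littermates in its methods. WT is therefore used here only as the label of that group.

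Each table gave 1 level per peak, the authors' mean log2 CPM (counts scaled to a common library size and read as log2) over the 4 WT and KO libraries of that cell type. The tables held no value per library and no total count, so the depth behind each level and the spread between replicates are not given here, and the levels of MPP3 and MPP4 were not tested against each other. WT and KO cells were not compared here. The tables were normalized separately, so a level is also given as its percentile among all peaks of its own table. The positions of the loxP sites were not given in the sources used here, so the floxed region could not be marked on the gene. Fragments missing from a deleted segment in the KO libraries would enter the mean of every peak within it and cannot be told apart from lower accessibility there.

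Ebf1 encodes early B cell factor 1, a transcription factor with a zinc-coordinating DNA-binding domain and a helix-loop-helix dimerization domain. It is known for specifying the B cell lineage with E2A, Foxo1 and Pax5, and it is transcribed from alternative promoters. MPP3 cells are known as progenitors biased to myeloid output and MPP4 cells as lymphoid-primed progenitors. Both lie upstream of committed B cell precursors.

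The following 5 stretches are shown because the results below turn on them. They are the centre of the intron 8 peak with the second highest level in MPP4, the intron 9 peak that differed most in length, the highest peak found in each table alone, and the upstream part of the peak at the first transcript start. Each reads 5′ to 3′ on the plus strand of GRCm38, taken from the MPP3 peak except for the intron 6 stretch. Capitals mark E-box words, CAGGTG or CAGCTG on either strand (CAGGTG reads CACCTG on the other), a sequence that E2A and other basic helix-loop-helix factors are known to bind.
Intron 8, chr11:44893023-44893322: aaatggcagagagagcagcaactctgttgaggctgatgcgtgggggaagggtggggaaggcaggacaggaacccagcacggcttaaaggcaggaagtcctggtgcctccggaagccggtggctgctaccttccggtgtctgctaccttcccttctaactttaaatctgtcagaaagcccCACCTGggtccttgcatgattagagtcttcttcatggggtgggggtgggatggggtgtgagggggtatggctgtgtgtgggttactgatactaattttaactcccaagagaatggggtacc
Intron 9, chr11:44920150-44920449: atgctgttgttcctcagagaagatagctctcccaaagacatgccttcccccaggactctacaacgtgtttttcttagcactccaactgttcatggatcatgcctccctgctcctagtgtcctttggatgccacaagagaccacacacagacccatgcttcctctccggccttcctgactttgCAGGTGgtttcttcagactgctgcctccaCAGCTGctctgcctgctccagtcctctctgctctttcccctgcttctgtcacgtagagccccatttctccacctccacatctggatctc
Intron 8, MPP3 only, chr11:44897372-44897637: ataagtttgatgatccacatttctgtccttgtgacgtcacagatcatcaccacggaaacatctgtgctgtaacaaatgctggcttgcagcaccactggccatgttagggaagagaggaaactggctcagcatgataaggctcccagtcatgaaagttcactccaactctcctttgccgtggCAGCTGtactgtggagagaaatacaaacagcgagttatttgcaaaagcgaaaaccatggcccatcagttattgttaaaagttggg
Intron 6, MPP4 only, chr11:44682087-44682386: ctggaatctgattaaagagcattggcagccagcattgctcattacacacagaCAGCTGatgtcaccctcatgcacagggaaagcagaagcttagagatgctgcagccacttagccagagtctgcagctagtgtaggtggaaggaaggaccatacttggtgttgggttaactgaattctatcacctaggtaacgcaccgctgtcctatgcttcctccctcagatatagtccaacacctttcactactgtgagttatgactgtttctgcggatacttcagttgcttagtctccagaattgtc
First start, upstream of exon 1, chr11:44617085-44617316: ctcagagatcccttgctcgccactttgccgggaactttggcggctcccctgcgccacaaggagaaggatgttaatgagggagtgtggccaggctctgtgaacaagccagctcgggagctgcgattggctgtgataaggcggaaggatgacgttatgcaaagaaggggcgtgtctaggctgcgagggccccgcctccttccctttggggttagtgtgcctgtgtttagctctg

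Most Ebf1 peaks were intronic, in a window of 420.8 kb of which the gene, mostly intron, takes 390.8 kb. Most were also weak. In each cell type 18 of the 22 peaks were centred in an intron, 3 upstream and 1 downstream, and none was centred in an exon. Levels ran from 0.51 to 3.38 log2 CPM in MPP3, with a median of 1.62, and from 0.43 to 5.15 in MPP4, with a median of 1.46. Over all peaks the median was 2.24 in MPP3 and 2.35 in MPP4, and 6 Ebf1 peaks of MPP3 and 5 of MPP4 lay above it. The median Ebf1 peak stood at percentile 31.5 of the MPP3 table and 25.8 of the MPP4 table. Promoter peaks made up 26.8% and 27.1% of all peaks of these tables. Among peaks over 1 kb from a transcript start the median percentile was 37.9 in MPP3 and 27.6 in MPP4. In each cell type 5 of the 22 peaks fell below the 10th percentile. Above the 75th percentile lay none of the MPP3 peaks and 2 of the MPP4 peaks, those of introns 7 and 8.

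**Figure D1:**
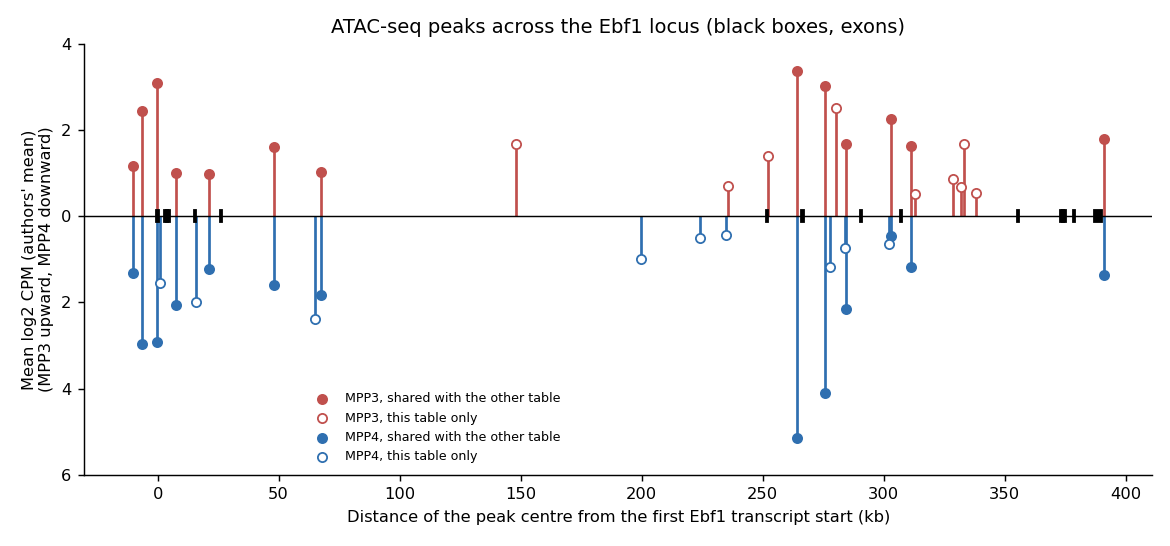
Position of the 44 Ebf1 peaks, as distance of the peak centre from the first transcript start in kb, against the authors' mean log2 CPM, with MPP3 drawn upward and MPP4 downward. Filled points are peaks found in both tables, open points peaks found in 1 table, and black boxes exons; the highest point of both tables is the intron 7 peak, at 3.38 in MPP3 and 5.15 in MPP4.

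The peaks were spread unevenly along the gene. Introns 1 to 5, which together hold 24.7 kb, had 2 peaks in MPP3 and 4 in MPP4, or 8.09 and 16.2 per 100 kb. In MPP4 this was the densest group of introns. Intron 6 is the longest, at 225.6 kb, and held 4 and 6 peaks, or 1.77 and 2.66 per 100 kb. Introns 7 to 10, at 103.3 kb, held 12 and 8 peaks, or 11.6 and 7.75 per 100 kb. Introns 11 to 15, at 31.1 kb, held none in either table. In all, 7 of the 15 introns were without a peak in both tables. The widest stretch without a peak was 87.5 kb in MPP3 and 132.3 kb in MPP4, both in intron 6. Intron 10 differed most in number, with 6 peaks in MPP3 and 1 in MPP4.

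The first transcript start, used by 3 of the 7 annotated transcripts, had a peak in both cell types. It was chr11:44617081-44617389 in MPP3 and chr11:44617059-44617394 in MPP4, each reaching into exon 1, at 3.10 and 2.93 log2 CPM. These levels stood at percentiles 69.4 and 63.0 of their tables, the second highest Ebf1 peak in MPP3 and the fourth in MPP4. Gm37695, a transcript model on the minus strand, starts at 44617016, also within 1 kb of the centre of this peak. The level cannot be assigned to either start alone. A second promoter peak, one with its centre within 1 kb of an annotated start, was found in MPP4 alone, in intron 1 at chr11:44618394-44618572, with 67.0% GC and 1.56 log2 CPM. Its centre lay 304 bp from the nearest annotated start. The annotated starts further into the gene, 4.444 and 294.821 kb from the first, had no peak centred within 1 kb. The starts that RefSeq gives to Ebf1 did not lie in a peak: 44618100 was 711 bp from the nearest MPP3 peak and 294 bp from the nearest MPP4 peak, and 44620228 was 2839 and 1656 bp away.

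Upstream of the gene both cell types had the same 2 further sites. The one 6.25 kb before the first start, chr11:44610940-44611187 in MPP3, lay inside Gm37695, an unclassified transcript model on the minus strand, and stood at 2.45 log2 CPM in MPP3 and 2.97 in MPP4. The one 10.3 kb before the start stood at 1.16 and 1.32. Downstream, both had a single peak just past the end of the gene (chr11:45008130-45008418 in MPP3), at 1.78 and 1.37.

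Peak sets were compared between the cell types by overlap of at least 1 bp. Of the 22 Ebf1 peaks, 13 were shared in each direction (59.1%), beside 75.7% of all MPP3 peaks and 76.7% of all MPP4 peaks. Over the whole tables higher peaks were shared more often. Of the MPP3 peaks under 1 log2 CPM 23.8% were shared, of those from 1 to 2 62.9%, of those from 2 to 3 86.9% and of those at 3 or more 97.6%. Among all peaks with levels like those of the Ebf1 peaks, the shared ones made up 59.8% in MPP3 and 61.1% in MPP4, a share near that of the Ebf1 peaks. Counting each shared site once, the locus held 31 sites. Peaks called in 1 table had a median of 0.87 log2 CPM in MPP3 and 0.99 in MPP4, against 1.67 and 1.82 for the shared ones.

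All peaks found in 1 table alone were intronic. Of the 9 in MPP3, 5 lay in intron 10 and were 150 to 163 bp long. These started at 44930047, 44945844, 44949319, 44950438 and 44955453, with levels of 0.51, 0.87, 0.67, 1.67 and 0.54 log2 CPM. Of these levels 4 were below the 10th percentile of the table, and the nearest MPP4 peak lay 1.316 to 26.7 kb away. Intron 6 held 2 more, starting at 44765052 (1.69) and 44852808 (0.69), and intron 7 held 1, starting at 44869358 (1.40). The highest MPP3 peak without an MPP4 counterpart was chr11:44897372-44897637 in intron 8, printed above, at 2.51 log2 CPM and percentile 56.7. The nearest MPP4 peak was 2.315 kb away.

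Of the 9 peaks in MPP4 alone, 4 lay in intron 6. They started at 44682078, 44817116, 44841128 and 44851964, with levels of 2.39, 0.99, 0.51 and 0.43 log2 CPM. The first of them, at percentile 51.1, was the highest MPP4 peak without an MPP3 counterpart, and the last was the lowest of all Ebf1 peaks. The last lay 695 bp from the MPP3 peak that starts at 44852808, so both tables had a weak call in this stretch without an overlap. Intron 1 held the promoter peak given above and intron 5 a peak starting at 44633036 (2.00). Intron 8 held peaks starting at 44894908 (1.17) and 44901092 (0.74), and intron 9 one starting at 44919494 (0.65). In each cell type 5 of the 9 peaks without a counterpart were under 1 log2 CPM, a range in which 23.8% of all MPP3 peaks and 31.3% of all MPP4 peaks had a counterpart.

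The 13 shared peaks were compared in level, MPP4 minus MPP3, after subtracting 0.039, the median of this difference over all 66324 shared peaks. Of the 13, 8 were higher in MPP4 than this shift and 5 lower, beside 50.0% of all shared peaks, which the centring sets. The median of the 13 was 0.19 on the log2 scale as deposited and -0.03 per kb of peak length, so no common direction of the shared peaks can be given. Of the 13, 10 were longer in MPP4 than in MPP3. The share of all shared peaks that were longer in MPP4 was not counted. Over all peaks the median length was 273 bp in MPP3 and 285 bp in MPP4. A longer peak collects more reads, and a higher accessibility of the same bases cannot be told apart from a longer call.

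**Figure D2:**
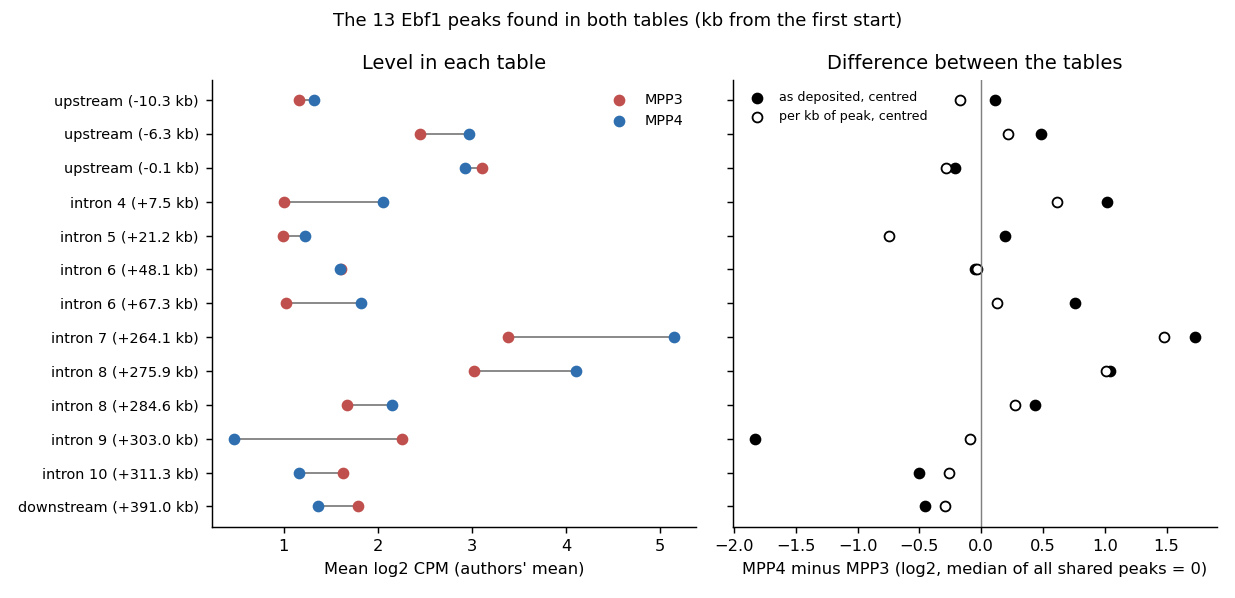
The 13 shared Ebf1 peaks in order of position, with the authors' mean log2 CPM in MPP3 and MPP4 on the left and the difference, MPP4 minus MPP3, on the right. Filled points are differences as deposited and open points per kb of peak length, both with the median of all shared peaks set to 0; the intron 7 peak and the first intron 8 peak keep a difference above 1, while intron 9 goes from -1.83 to -0.09.

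The intron 7 peak stood out at 3.38 log2 CPM in MPP3 and 5.15 in MPP4. It was the highest Ebf1 peak in both cell types at percentile 74.1 of the MPP3 table and 92.5 of the MPP4 table. The difference of 1.73 on the log2 scale, or 3.3-fold, was at percentile 99.3 of all shared peaks. It was 1.48 per kb of peak length, at percentile 99.8. Among the 9295 shared peaks within 0.5 log2 CPM of its mean level, it stood at percentile 99.0.

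The first shared peak of intron 8 lay 11.8 kb further into the gene, centre to centre, at chr11:44892895-44893450 in MPP3 and chr11:44892898-44893486 in MPP4. Its level was 3.03 log2 CPM in MPP3 and 4.11 in MPP4, and its percentile 68.0 and 82.2. The difference was 1.04, or 2.1-fold, at percentile 95.1 of all shared peaks and 93.1 of those of like level, and 1.01 per kb. Both peaks of the pair were thus higher in MPP4, and in that cell type they held 45.1% of the summed CPM of the 22 Ebf1 peaks. The highest pair of MPP3, the intron 7 peak and the promoter peak, held 23.4%.

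The intron 9 peak had the largest difference in the other direction as deposited. It stood at 2.26 log2 CPM over 482 bp in MPP3 (chr11:44920059-44920540) and at 0.47 over 150 bp in MPP4 (chr11:44920234-44920383). The MPP4 call covered 31.1% of the MPP3 peak. The difference was -1.83, at percentile 0.484 of all shared peaks, but -0.09 per kb of peak length, at percentile 40.0. The call was shorter in MPP4, and a lower accessibility of the same bases cannot be told apart from a shorter call.

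The other shared peaks differed less as deposited. The intron 4 peak (MPP3 start 44624685) stood at 1.00 in MPP3 and 2.05 in MPP4, a difference of 1.02 and of 0.61 per kb. It was at percentile 94.8 of all shared peaks and 96.8 of those of like level, above the intron 8 peak on the latter count. In intron 6 the peak starting at 44665199 was alike in both, at 1.61 and 1.60, and the one starting at 44684575 stood at 1.03 and 1.82, with 0.76 as deposited and 0.13 per kb. The further intron 8 peak (44901773) stood at 1.67 and 2.15, and the intron 5 peak (44638432) at 0.99 and 1.22. The promoter peak, the intron 10 peak (44928461) and the downstream peak were lower in MPP4, by -0.21, -0.51 and -0.46 as deposited and by -0.28, -0.26 and -0.29 per kb. All 3 lay between the 5th and 95th percentile of all shared peaks, which are -0.92 and 1.03.

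**Figure D3:**
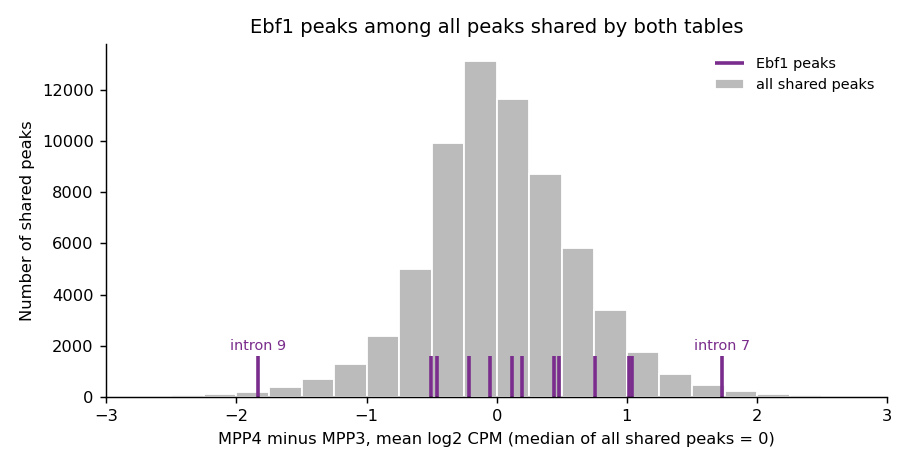
Difference in mean log2 CPM, MPP4 minus MPP3, of all 66324 shared peaks (grey bars, number of peaks in steps of 0.25, median set to 0) with the 13 Ebf1 peaks as purple lines. The intron 7 peak at 1.73 and the intron 9 peak at -1.83 lie in the sparse ends of the distribution, and the other 11 lie between -0.51 and 1.04.

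The sequence under the peaks was searched on both strands for 9 short words, in the 300 bp around each centre. The EBF1 word (TCCCNNGGG or CCCNNGGGA) is the site that EBF1 itself is known to bind. It was in none of the 22 MPP3 and none of the 22 MPP4 windows, beside 6.72% and 5.63% of the windows of all peaks. At such shares few of 22 windows would hold the word, and its absence was not tested. E-box words were in 13 MPP3 windows (59.1%) and 11 MPP4 windows (50.0%), beside 38.5% and 39.0% of all windows. They were in 8 of the 13 shared peaks in each table, in 5 of the 9 peaks found in MPP3 alone and in 3 of the 9 found in MPP4 alone. No test was made of these shares, and the windows of the 13 shared peaks are nearly the same sequence in both tables. For peaks shorter than 300 bp the window reaches past the peak. Counted in the peaks alone, E-box words were in 11 of the 22 MPP3 peaks and 10 of the 22 MPP4 peaks. Of all peaks 38.7% and 40.0% held them on this count.

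Within the peaks as deposited there were 19 distinct E-boxes, 10 with the word CAGGTG and 9 with the palindrome CAGCTG. The intron 8 peak had one at chr11:44893202-44893207, 12.5 bp from the MPP4 centre, and others at chr11:44892943-44892948 and chr11:44893322-44893327. The intron 9 peak had a pair, at chr11:44920332-44920337 and chr11:44920361-44920366, and both lay within the shorter MPP4 call. The promoter peak and the 2 further upstream peaks had none.

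The other words gave shares close to or below those of all peaks, or small counts. The PU.1-type ETS word (GAGGAA) was in 8 MPP3 and 6 MPP4 windows, beside 39.4% and 41.9% of all. RUNX words (TGTGGT or TGCGGT) were in 8 in each table, or 36.4%, beside 35.8% and 37.6%. The IKAROS word (TGGGAA) was in 2 and 4 windows (23.0% and 22.9% of all), the AP-1 word (TGANTCA) in 2 and 2 (10.9% and 10.7%), the STAT word (TTCNNNGAA) in 1 and 2 (7.20% and 7.85%), the GATA word (AGATAA) in 1 and 0 (12.0% and 10.1%) and the FOXO word (GTAAACA) in 0 and 0 (3.34% in each). The words are short, and a match is no evidence of binding.

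**Figure D4:**
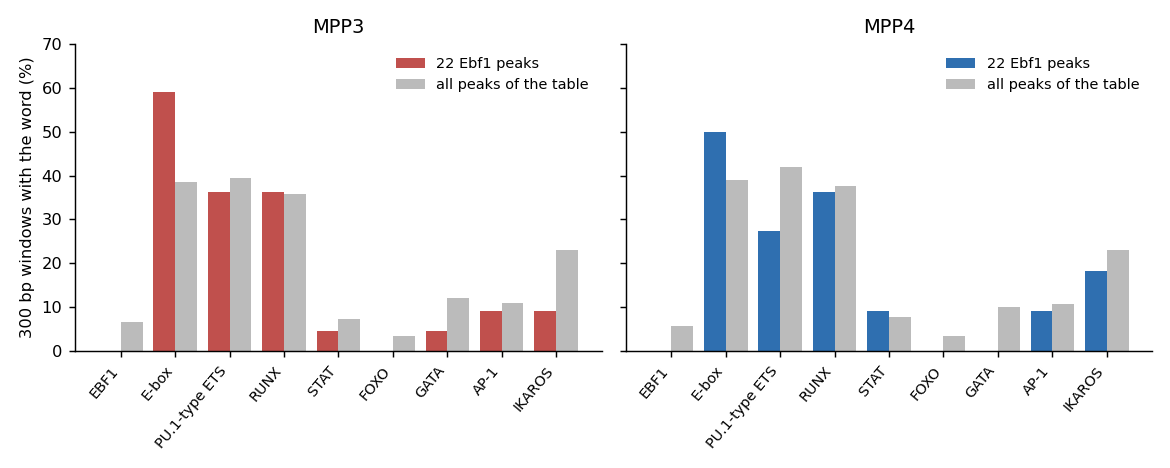
Percent of 300 bp windows around peak centres that hold each of the 9 words, in the 22 Ebf1 peaks (coloured bars) and in all peaks of the table (grey bars), for MPP3 and MPP4. E-box words were in 59.1% and 50.0% of Ebf1 windows against 38.5% and 39.0% of all, and the EBF1 and FOXO bars of Ebf1 are at 0.

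Median GC content was 49.3% in MPP3 and 50.6% in MPP4, against 52.5% and 51.9% for all peaks. None was masked as repeat over 50% or more of its length, against 6.84% and 5.49% of all peaks. Median length was 252 and 267.5 bp, against 273 and 285 bp, while 3 MPP3 peaks (13.6%) and 4 MPP4 peaks (18.2%) had 150 bp, the extension length set in peak calling, beside 5.37% and 3.81% of all peaks.

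As a long gene Ebf1 was compared with protein-coding genes of at least 200 kb under the same flanks. It had 5.23 peaks per 100 kb in both cell types, against a median of 2.37 in MPP3 and 2.25 in MPP4 over these 952 genes. It ranked 215 in MPP3 and 216 in MPP4 from the top, at percentiles 77.4 and 77.3. Among the 2369 genes of at least 100 kb the medians were 3.81 and 3.75 and Ebf1 stood at percentiles 63.4 and 63.5. Among 338 genes within 25% of its length the median was 9 peaks in each table. The 5 most like Ebf1 in their numbers of MPP3 and MPP4 peaks were Arhgef28 (22 and 22), Plcb4 (22 and 21), Baz2b (21 and 22), Cmss1 (21 and 22) and Jazf1 (23 and 22).

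**Figure D5:**
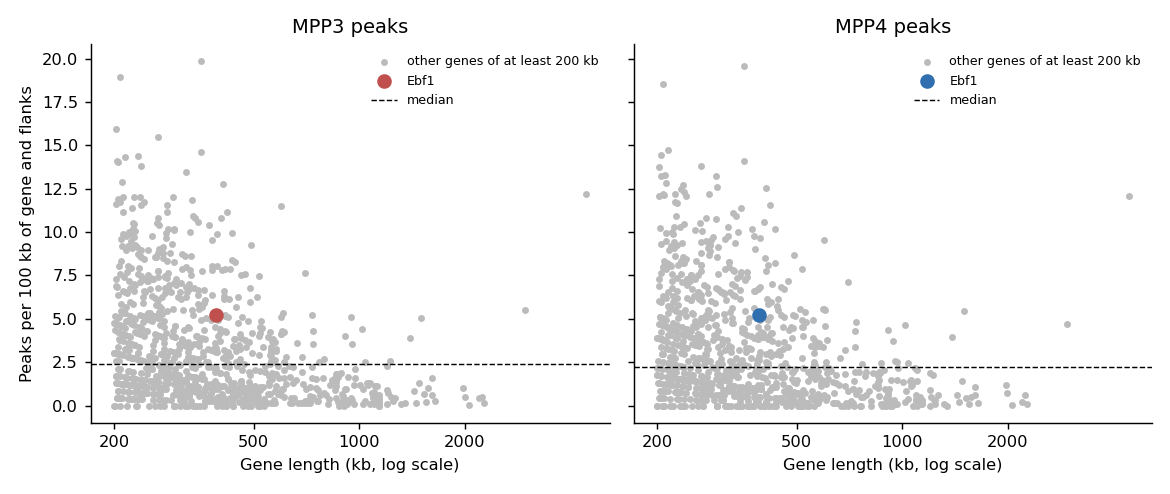
Peaks per 100 kb of gene and flanks (20 kb upstream, 10 kb downstream) against gene length in kb on a log scale, for 952 protein-coding genes of at least 200 kb, with Ebf1 as the large point and the median as a dashed line. Ebf1 lies at 5.23 in both panels, above the medians of 2.37 and 2.25, at rank 215 in MPP3 and 216 in MPP4.

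Among its paralogs, the EBF family of transcription factors, Ebf1 was intermediate at the promoter. Ebf2 had a promoter peak at percentile 81.3 in MPP3 and 77.0 in MPP4, and Ebf3 at 58.0 and 40.3, while Ebf4 had none in either. Among all protein-coding genes with a promoter peak, the highest such peak stood below that of Ebf1 in 21.5% of genes in MPP3 and 20.3% in MPP4. Of 15 genes known to act upstream of or with Ebf1, all had a promoter peak, beside 67.5% and 67.3% of 20780 protein-coding genes, and 14 in MPP3 and 15 in MPP4 stood above Ebf1. In each cell type 14 of the 15 were above the 75th percentile of all peaks, beside 73.3% and 68.7% of all genes with a promoter peak. Their median percentile was 94.5, beside 88.7 and 86.6 for those genes. Tcf3, which encodes E2A, stood at 98.3 and 97.5, and Spi1, which encodes PU.1, at 95.9 and 96.9. Pax5, a B cell identity factor that acts with Ebf1 and after it, stood at 90.6 and 87.0. Il7r, the receptor chain of interleukin 7, was the lowest in MPP3 at 61.2, below Ebf1, and stood at 75.8 in MPP4.

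The sort was checked at the promoters of its markers. Of the gate's positive markers Kit and Cd48 had a promoter peak in both tables. Ly6a, which encodes Sca-1, had one in MPP4 at percentile 16.8 and none in MPP3. Cd34 and Ptprc, which the gate as given above does not name, had a promoter peak in both tables. Slamf1, which encodes CD150 and by which both gates were negative, had a promoter peak in both tables, at percentiles 24.7 and 21.97. Flt3 stood at percentile 96.8 in MPP3 and 99.6 in MPP4. Of the depleted lineages Cd3e, Ly6g and Klf1 had no promoter peak, Itgam had one at 64.5 and 67.6, and Cd79a one at 68.4 in MPP3 only. The part of other cells in the Ebf1 peaks was not tested.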

How the data were processed

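ATAC-seq libraries were processed by the authors, per the study's methods and the submitters' processing notes. Reads were trimmed (cutadapt 2.10), mapped to mm10 and deduplicated, and short fragments were kept. Peaks were called (MACS2 2.2.7.1) on replicates merged per condition, and the calls of each cell type were merged with bedtools. Reads over merged peaks were fitted with edgeR 3.32.0 in R 4.0.3. Whether a peak or its length came from a call in WT, in KO or in both was not given. The deposited log2 CPM column is the authors' mean over the 4 libraries of a cell type. The 4 columns of the authors' WT and KO comparison in each table (fold change, F statistic, p-value and FDR) were not used.

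Peak starts were read as 0-based and printed 1-based. Peaks were assigned to GENCODE vM21 genes by their centre and to introns by transcript Ebf1-201, and sequence was read from GRCm38, which is mm10. A promoter peak had its centre within 1 kb of an annotated start. Peaks were shared where they overlapped by at least 1 bp. Per-kb levels are log2 CPM minus log2 of the length in kb. Percentiles count the peaks of the same table. All numbers are descriptions with no test, computed with Python 3.11.15, numpy 2.4.6 and pandas 2.3.3, and the steps were tested on simulated data. The tables held the 19 autosomes. Some marker genes and the sequence of 1 peak are not reported here.

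The members and gene lists were chosen with earlier results of these data known. Peaks described in full were the promoter peaks, the 3 highest and 3 lowest per table and every peak found in 1 table. So were the 3 shared peaks with the largest difference. Other genes named were the EBF family, the regulators, the cell type markers and the 5 genes most alike in peak numbers. The alternatives tried were other windows, overlaps, promoter distances, scalings, motif windows and gene lengths.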

Additional observations from a re-analysis of the deposited data

How the results depend on the processing

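Of 68 alternatives, 52 left a result alike, 13 moved it and 3 turned its direction. A result counted as moved where it differed by more than 1.5 times. A fall from 22 to 15 MPP3 peaks, at 1 log2 CPM or more, thus still counted as alike. All 3 turns came with levels per kb of peak length: the median difference of the 13 shared peaks became -0.033, that of the upstream peak starting at 44606977 became -0.18 and that of the intron 5 peak starting at 44638432 became -0.74. Per kb, 11 of the 13 kept their direction and 6 were above the shift of all shared peaks. By percentiles in place of levels, 13 of the 13 kept it. The number of members was 18 in each table within the gene alone, and 15 and 16 at 1 log2 CPM or more. Where at least 50% of both peaks had to be covered, 12 peaks were shared. Of the other changes, 9 were in the size of single peaks' differences and 4 in small motif counts.

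No paired analysis was possible because the tables hold no value per library. No replicate was left out for the same reason. The means pool WT and KO libraries, and which cell type a table holds was taken from its name.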

Other observations

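Beyond the locus, with flanks chosen after seeing the data, the sides of Ebf1 were unlike in peak number. The 300 kb downstream of the window held no MPP3 peak and 1 MPP4 peak, at 1.23 log2 CPM. The 100 kb upstream held 12 MPP3 and 7 MPP4 peaks. Of these, 7 in each cell type were shared, beside 75.7% of all MPP3 peaks and 76.7% of all MPP4 peaks. The highest upstream peak stood at 4.18 log2 CPM in MPP3 and 4.57 in MPP4, at percentiles 84.5 and 87.4. The median level there was 2.82 in MPP3 and 3.23 in MPP4, above the 1.62 and 1.46 of the Ebf1 peaks. The MPP3 median takes in upstream peaks without an MPP4 counterpart, while every MPP4 peak there was shared. Whether any of these peaks bears on Ebf1 was not tested.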
